A study of Mus musculus with 6 samples.

Results

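Matrix metalloproteinases (MMPs), their tissue inhibitors (TIMPs) and the membrane-anchored inhibitor RECK were followed in cultured mouse hepatic stellate cells after adenylyl cyclase activation. The 10 genes were taken by symbol from the deposited table of 24940 genes, 1 row each: Mmp2, Mmp3, Mmp9, Mmp13, Mmp14, Mmp19, Timp1, Timp2, Timp3 and Reck. All 10 had counts and passed the low-count filter that left 12233 genes for testing.

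Stellate cells were isolated from wild-type female C57BL/6JBomTac mice, whose age is not given in the sources used here, and cultured for 2 days. Forskolin, a plant diterpene that switches on adenylyl cyclase and so raises cAMP, was then added at 5 µM to 3 cultures, and an equal volume of its solvent DMSO to 3 others. Polyadenylated RNA was sequenced 3 h later, as replicates A, B and C of each group. Whether the replicates came from separate animals or isolations is not in the labels, and p-values below therefore cover the spread of these libraries alone, which may be technical.

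MMPs are zinc endopeptidases that cut collagens and other matrix proteins. Most are secreted as inactive proenzymes, which plasmin or another MMP can activate, and the TIMPs block the active site of the mature enzyme. In the liver, stellate cells are a main source of both, and the balance between protease and inhibitor is a textbook feature of scar formation and its resolution. Transcript levels, as measured here, do not report on proenzyme activation.

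Library depth ran from 2770629 to 10607997 deposited counts, and both C libraries were the shallowest of their group. Across tested genes, log2 CPM (counts per 1000000 of the TMM-scaled library size) correlated at 0.986 between forskolin A and B and 0.981 between DMSO A and B. For a C library against A or B of its own group these values were 0.950 to 0.954; genes are not independent replicates. The C libraries also held less of most of these 10 transcripts. The C library was the lowest of its group in both groups for 8 of the 10 genes, all but Mmp13 and Reck, against 25.6% of all tested genes. Results are therefore given with all 6 libraries and again without both C libraries, a choice made with earlier results of these data known. The fit without them compares A and B alone, 2 libraries per group. The C libraries were left out partly for their low values of these same genes. The smaller SEs and the calls of that fit are therefore no separate evidence of a change. Summed stellate cell markers ran from 1613 to 1715 CPM of column totals in DMSO and from 1670 to 1853 CPM with forskolin, with all 12 markers detected. Of these 12, 2 were called higher with forskolin by edgeR and 0 lower, beside 2.22% and 0.572% of all tested genes. The sum is thus not independent of treatment. Summed markers of activated stellate cells, Acta2 and Col1a1 among them, were also lowest in the C libraries, at 398 CPM in DMSO C and 405 CPM in forskolin C beside 562 to 707 CPM in the other libraries; their part in the values of the 10 genes was not tested. Summed macrophage markers, 9 of 10 detected and Marco at 0, ran from 18.7 to 21.8 CPM in DMSO and from 14.1 to 18.6 CPM with forskolin. Most of this sum was Cd68 (7.58 to 13.9 CPM) and Csf1r (3.77 to 7.60 CPM). No other marker of that list exceeded 2.54 CPM in any library, and 2 of the 10 could be tested. Neutrophil markers summed to at most 2.97 CPM in any DMSO library and to 0 in every forskolin library, with S100a9, Elane and Retnlg at 0 throughout. Markers of endothelial cells, hepatocytes, cholangiocytes, lymphocytes, mesothelium and portal fibroblasts summed to at most 43.9 CPM per list in any library. Macrophages and neutrophils are known sources of Mmp9, Mmp12, Mmp13 and Mmp8, and their part in these values was not tested. In bulk RNA, fewer cells of a type and less RNA per cell cannot be told apart.

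Upstream sequences are shown first because those of Mmp3 and Mmp13 share letters that the windows of the other 5 members with an entry lack. Mmp3 and Mmp13 lie in one cluster of MMP genes on mouse chromosome 9, where Mmp10, another stromelysin gene and no member of the 10, also lies. RefSeq promoter entries (GRCm38.p6, the assembly behind the mm10 build named in the submitters' processing notes) were found for 7 of the 10 genes and for Mmp10, and not for Mmp2, Mmp9 and Mmp19. The 250 bases before the annotated transcript start were searched on both strands for AP-1 letters (TGANTCA), the cAMP response element or CRE (TGACGTCA), its shorter core (TGACG, which the full CRE contains) and a TATA box (TATAAA). The 3 cluster genes and Mmp14, the most abundant of the 6 member MMPs, are shown 5′ to 3′ on the plus strand, with the AP-1 and TATA box letters in capitals.
Mmp3, chr9:7445572-7445821: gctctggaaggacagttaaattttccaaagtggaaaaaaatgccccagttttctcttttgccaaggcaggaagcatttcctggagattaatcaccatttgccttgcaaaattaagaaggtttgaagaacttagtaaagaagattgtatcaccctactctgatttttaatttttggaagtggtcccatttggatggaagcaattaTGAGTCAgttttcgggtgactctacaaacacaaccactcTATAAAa
Mmp13, chr9:7272264-7272513: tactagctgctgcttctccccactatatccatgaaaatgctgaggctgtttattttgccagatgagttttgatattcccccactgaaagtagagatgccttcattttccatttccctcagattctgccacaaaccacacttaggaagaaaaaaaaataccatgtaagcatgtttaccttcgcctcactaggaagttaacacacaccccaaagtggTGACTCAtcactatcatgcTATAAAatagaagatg
Mmp10, chr9:7502092-7502341: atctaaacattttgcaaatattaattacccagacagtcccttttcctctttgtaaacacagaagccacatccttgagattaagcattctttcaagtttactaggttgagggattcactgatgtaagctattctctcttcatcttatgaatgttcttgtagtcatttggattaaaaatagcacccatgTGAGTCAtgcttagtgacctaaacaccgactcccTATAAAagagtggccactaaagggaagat
Mmp14, chr14:54431348-54431597: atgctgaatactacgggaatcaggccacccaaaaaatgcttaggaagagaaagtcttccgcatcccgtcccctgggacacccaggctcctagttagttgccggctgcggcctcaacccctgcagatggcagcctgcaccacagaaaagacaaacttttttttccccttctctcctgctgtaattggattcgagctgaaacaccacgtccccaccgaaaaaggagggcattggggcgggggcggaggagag

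The 3 cluster genes each held 1 AP-1 match and 1 TATA box match. The AP-1 match began 46 bases before the start in Mmp3, 35 bases before it in Mmp13 and 63 bases before it in Mmp10. The TATA box match began 7, 16 and 29 bases before the start in Mmp3, Mmp13 and Mmp10. Distances are from the annotated starts, and whether these are the starts used in these cells was not tested. Mmp14, Timp1, Timp2, Timp3 and Reck held neither set of letters, and Timp1 alone of the 8 held the CRE core, beginning 84 bases before its start. No full CRE was found in any of the 8 windows. Over all 32851 RefSeq promoter windows of this length, 6.75% held AP-1 letters, 12.4% a TATA box, 1.21% both, 17.8% the CRE core and 1.55% the full CRE. A match is a description of letters, not of binding.

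**Figure D1:**
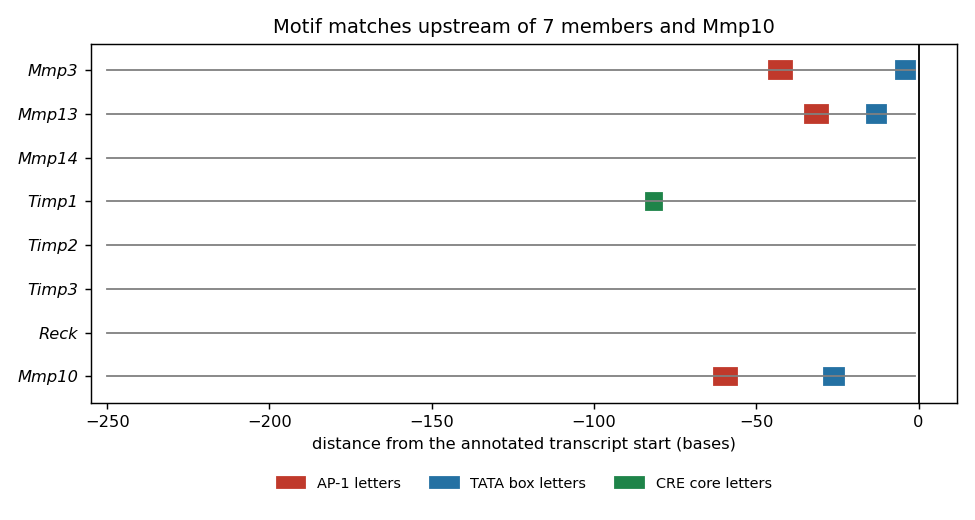
Positions of AP-1, TATA box and CRE core letters in the 250 bases before the annotated start of 7 members and of Mmp10 (x axis: distance from the start in bases; coloured blocks: matches on either strand). AP-1 and TATA box letters occur together in the 3 genes of the chromosome 9 cluster, and the other 5 windows hold neither.

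The most abundant of the 10 transcripts per length were those of an inhibitor and of a membrane protease. Levels between genes are given as CPM per kilobase of the deposited transcript length. In DMSO, Timp3 averaged 59.3 ± 25.1 CPM per kilobase (mean ± SD, n = 3), followed by Mmp14 at 39.1 ± 10.1, Timp1 at 30.4 ± 10.8 and Timp2 at 28.3 ± 7.13. The ranges of each neighbouring pair among these 4 overlapped. Compared within each library, Timp3 was above Mmp14 and Mmp14 above Timp1 in all 3, and Timp1 above Timp2 in 2. Below them came Mmp13 at 18.5 ± 1.81, Mmp3 at 14.04 ± 4.92, Reck at 9.85 ± 1.32 and Mmp2 at 9.30 ± 2.31 CPM per kilobase. Ranges of neighbours overlapped again, but those of Timp2 and Mmp13 did not. Within libraries, Mmp13 was above Mmp3 in all 3, Mmp3 above Reck in 2 and Reck above Mmp2 in 1. Mmp19 (0.729 ± 0.115) and Mmp9 (0.233 ± 0.256) were near the limit of detection. With forskolin the first 4 places were the same, and Mmp2, at 15.8 ± 3.79 CPM per kilobase, stood next. Its range overlapped that of Mmp13, which it exceeded in 2 of the 3 forskolin libraries.

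The comparison asked which of these transcripts differed after 3 h of forskolin. By edgeR's quasi-likelihood test over all 12233 genes, 0 of the 10 passed a Benjamini-Hochberg adjusted p of 0.05, against 2.8% of all tested genes. Mmp2 and Mmp13 had an unadjusted p under 0.05, as did 1477 of all 12233 tested genes. DESeq2 also called 0, where it called 4.52% of tested genes. Limma-voom called Mmp2, where 2.92% of tested genes were called higher. Limma-voom with sample quality weights called Mmp2 as higher and Mmp13 as lower, beside 4.86% and 3.18% of tested genes. Values of the 2 groups overlapped for all 10 genes, while they did not for 20.2% of tested genes. The median log2 fold change of the 10 was 0.20, beside 0.00495 over all tested genes. It was above 0 for 7 of the 10 and for 6211 of all 12233 tested genes. Without both C libraries, with 2 libraries per group, 3 of the 10 passed, where 9.76% of 12597 tested genes did. Mmp2 and Mmp14 were called higher (background of higher calls 5.86%) and Mmp13 lower (background of lower calls 3.9%).

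**Figure D2:**
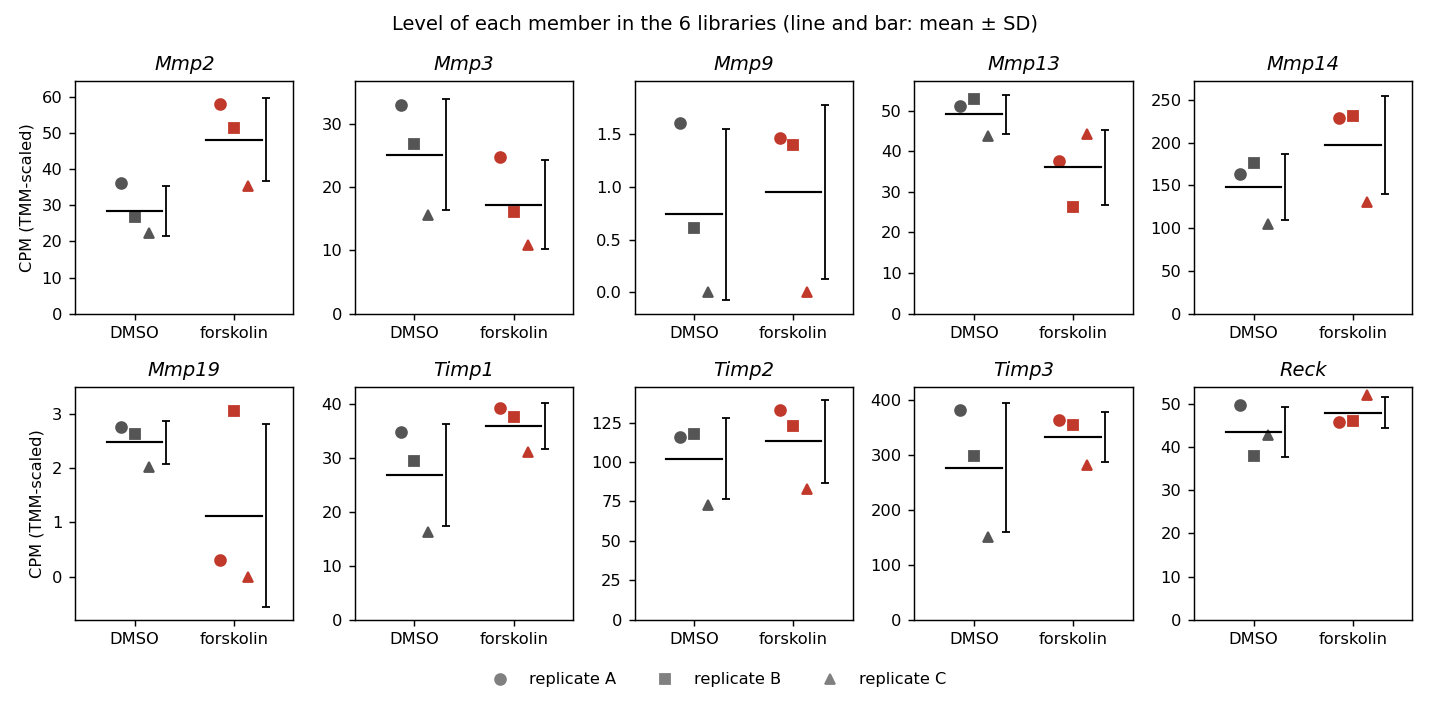
CPM on TMM-scaled library sizes of each of the 10 genes in every library (circles, squares and triangles: replicates A, B and C; horizontal lines and error bars: mean ± SD, n = 3 per group; each panel has its own axis). Triangles are the lowest points of both groups in every panel except Mmp13 and Reck.

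Among the gelatinases, which degrade denatured collagen and basement membrane collagen, Mmp2 (gelatinase A; chromosome 8, 92827297 to 92853421, mm10) had the smallest p of the 10. It stood at 36.2, 26.7 and 22.4 CPM in DMSO A, B and C, and at 57.9, 51.3 and 35.4 CPM in forskolin A, B and C. Forskolin C lay just below DMSO A, and the other two forskolin libraries lay above every DMSO library. The log2 fold change was 0.77 ± 0.24 (SE; 95% interval 0.24 to 1.30; unadjusted p = 0.00917, adjusted p = 0.176 by edgeR). Without both C libraries it was 0.80 ± 0.17 (adjusted p = 0.00269). It was also called with the filter relaxed to 1 count (adjusted p = 0.0144) and without forskolin C (adjusted p = 0.0418), and its log2 change stayed between 0.62 and 0.98 over 16 alternatives. Mmp9 (gelatinase B), made mainly by myeloid cells in the liver, had 14, 15 and 0 counts in forskolin A, B and C and 11, 6 and 0 in DMSO A, B and C. In the C libraries a count of 0 allows up to 1.17 CPM with forskolin and 1.02 CPM in DMSO, on the basis of 3 counts. With so few counts a small difference could not be resolved, and none was called (adjusted p = 0.961 by edgeR). The 95% interval of its log2 change, −2.32 to 3.13, was the widest of the 10, and the change of 0.40 turned to −0.03 without DMSO C; it was 0.40 without both C libraries.

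Mmp14, the membrane-type protease MT1-MMP that cleaves fibrillar collagen and activates the MMP2 proenzyme, stood at 164, 176 and 104 CPM in DMSO A, B and C. With forskolin it stood at 229, 231 and 131 CPM. Replicates A and B with forskolin lay above all DMSO libraries, while forskolin C lay below DMSO A and B. The log2 fold change was 0.41 ± 0.23 (95% interval −0.11 to 0.93; adjusted p = 0.57 by edgeR). Without both C libraries it was 0.43 ± 0.08 (adjusted p = 6.86e-04). Without 1 library at a time the change ran from 0.22 without DMSO C, through 0.28 without forskolin B, to 0.62 without forskolin C, and no such fit called it. As a share of the summed CPM per kilobase of the 6 member MMPs, Mmp14 made up 46.0, 51.1 and 45.5% in DMSO A, B and C. With forskolin the share was 56.0, 62.3 and 50.1%. Mmp10 is outside this sum. In DMSO A, B and C it stood at 46.5, 49.6 and 46.6 CPM per kilobase, above Mmp14 at 43.3, 46.5 and 27.5. It was also above Mmp14 in forskolin C (37.0 against 34.5), and below it in forskolin A and B.

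The collagenase and stromelysin of the chromosome 9 cluster had fold changes of the other sign. Mmp13 (collagenase 3; chromosome 9, 7272514 to 7283333), the main interstitial collagenase of mice, stood at 51.0, 52.8 and 43.7 CPM in DMSO A, B and C and at 37.6, 26.2 and 44.3 CPM with forskolin. Forskolin C lay within the DMSO range, and forskolin A and B lay below all DMSO libraries. The log2 fold change was −0.48 ± 0.21 (95% interval −0.95 to −0.01; unadjusted p = 0.0463, adjusted p = 0.402 by edgeR). Without both C libraries it was −0.71 ± 0.17 (adjusted p = 0.0096), and without forskolin B, the lowest library, it was −0.28 (adjusted p = 0.77). Mmp3 (stromelysin-1; chromosome 9, 7445822 to 7455974), which cleaves many matrix proteins and activates other MMP proenzymes, stood at 33.0, 26.7 and 15.6 CPM in DMSO and 24.7, 16.1 and 10.9 CPM with forskolin. The groups overlapped, and the log2 change of −0.53 ± 0.34 passed neither with all libraries (adjusted p = 0.647) nor without both C libraries (−0.55 ± 0.23, adjusted p = 0.156). Its sign held over 16 alternatives, from −0.88 to −0.29.

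Of the 11 genes the table lists in this stretch of chromosome 9, from Mmp13 (start 7272514) to Mmp7 (end 7699585), Mmp13, Mmp3 and Mmp10 were the ones with enough counts to be tested. Mmp10 (stromelysin-2; 7502342 to 7510242) stood at 80.1, 85.4 and 80.3 CPM in DMSO A, B and C and at 71.2, 59.3 and 63.7 CPM with forskolin. These groups did not overlap, as for 9.46% of tested genes in that direction, and the log2 change of −0.34 ± 0.13 did not pass (adjusted p = 0.302 by edgeR). Mmp12, the macrophage metalloelastase of the same cluster, had 10, 113 and 0 counts in DMSO A, B and C and 0, 0 and 2 counts in forskolin A, B and C. It failed the filter, nearly all its counts came from DMSO B, and it is named after its values were seen. It was called lower without both C libraries (adjusted p = 4.59e-04), where both forskolin libraries were at 0.

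Mmp19, a secreted MMP first known as an autoantigen, was low in every library. It had 19, 26 and 6 counts in DMSO A, B and C and 3, 33 and 0 counts in forskolin A, B and C. Forskolin B was thus the highest of the 6 while forskolin A was at the 3-count limit. The log2 change of −0.97 ± 1.07 had an interval of −3.35 to 1.42 (adjusted p = 0.853), and it was −0.66 ± 0.88 without both C libraries. Without forskolin B it was −3.43 (interval −6.79 to −0.07, adjusted p = 0.512), and without forskolin A −0.52. An opposite-strand neighbour, Tmem198b, overlaps it and had up to 71 counts, more than Mmp19 had in any library. The share of Mmp19 counts from this neighbour was not tested, and the library kit did not mark strand.

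**Figure D3:**
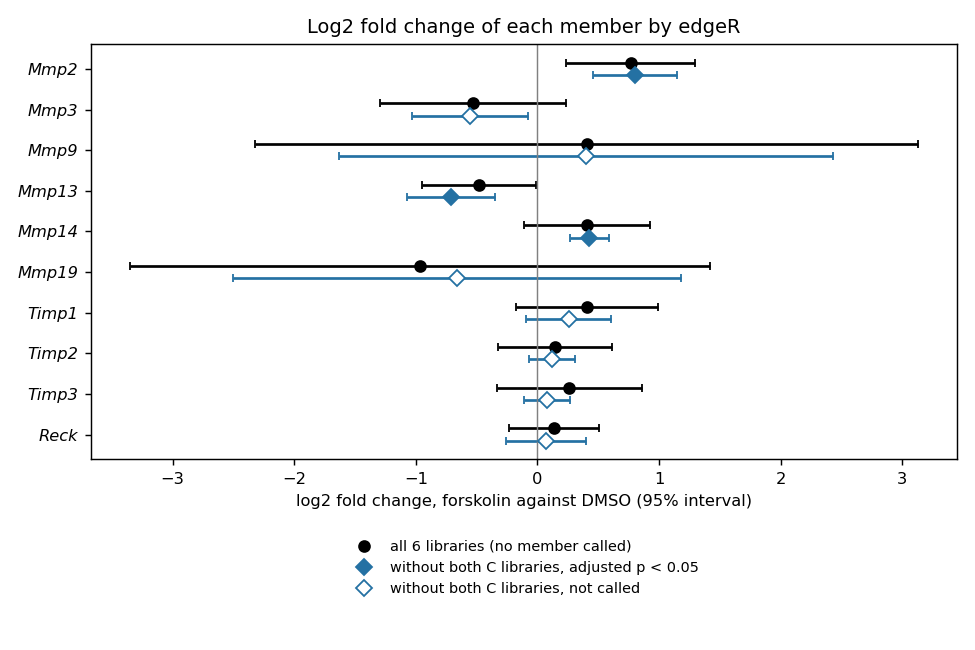
Log2 fold change of each gene with its 95% interval by edgeR, forskolin against DMSO (black circles: all 6 libraries; blue diamonds: without both C libraries, filled where the adjusted p is under 0.05). With all libraries none is called. In the fit of A and B alone, which leaves out both C libraries, Mmp2 (0.80), Mmp14 (0.43) and Mmp13 (−0.71) are.

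None of the 3 TIMPs passed by edgeR, with all libraries or without both C libraries. Timp3, a matrix-bound inhibitor that also blocks ADAM and ADAMTS proteases, stood at 383, 298 and 151 CPM in DMSO A, B and C and at 364, 355 and 281 CPM with forskolin. DMSO held both the highest and the lowest library. The log2 change was 0.26 ± 0.27 (95% interval −0.33 to 0.86; adjusted p = 0.83 by edgeR) and turned to −0.03 without DMSO C. Without both C libraries its interval was −0.11 to 0.27. Timp2, which inhibits MMPs and also bridges the MMP2 proenzyme to MMP14 at the cell surface, stood at 116, 118 and 72.5 CPM in DMSO and 133, 123 and 83.2 CPM with forskolin. A log2 change of 0.15 ± 0.21 (interval −0.32 to 0.61; adjusted p = 0.888) was found, which also turned to −0.03 without DMSO C and was 0.12 ± 0.09 without both C libraries. Timp1, the soluble inhibitor long used as a marker of liver fibrosis, stood at 34.7, 29.5 and 16.3 CPM in DMSO and 39.2, 37.5 and 31.1 CPM with forskolin. Forskolin C lay below DMSO A, and the other forskolin libraries lay above all DMSO libraries. Its log2 change was 0.40 ± 0.26 (interval −0.18 to 0.99; adjusted p = 0.646) with all libraries and 0.26 ± 0.17 (adjusted p = 0.439) without both C libraries, and it was 0.18 without DMSO C and 0.63 without DMSO A. The library kit did not mark strand, and Timp1 lies within Syn1 and Timp3 within Syn3 on the opposite strand. Those neighbours had at most 16 and 25 counts in any library, and Cep295nl, which overlaps Timp2 on the same strand, at most 29.

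Reck encodes a membrane-anchored protein that inhibits MMP2, MMP9 and MMP14. Its fold change had the smallest SE of the 10. It stood at 49.6, 38.0 and 42.7 CPM in DMSO A, B and C and 45.8, 45.9 and 52.1 CPM with forskolin. Its C libraries were not low in either group. The log2 change was 0.14 ± 0.17 (95% interval −0.23 to 0.51; adjusted p = 0.868 by edgeR), so that fold changes between 0.85 and 1.42 lie within the interval. Without both C libraries it was 0.07 ± 0.16.

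Summed per length, the 3 TIMPs exceeded the 6 member MMPs in every library. The 3 TIMPs summed to 153, 130 and 70.8 CPM per kilobase in DMSO A, B and C, and to 159, 152 and 118 with forskolin. The 6 MMPs summed to 94.0, 91.0 and 60.6 CPM per kilobase in DMSO and to 108, 97.9 and 68.8 with forskolin. The ratio of TIMP to MMP sums was 1.63, 1.43 and 1.17 in DMSO A, B and C and 1.48, 1.56 and 1.72 with forskolin. The lowest and the highest ratio were those of the 2 C libraries, and without them the groups overlapped too. The order depends on which MMPs are summed. Over all 23 MMP genes of the table, a sum added after the data were seen and to which Mmp10 gave 46.5, 49.6 and 46.6 CPM per kilobase in DMSO, the ratio was 1.04, 0.854 and 0.621 in DMSO A, B and C. With forskolin it was 1.01, 1.08 and 1.06, so the TIMPs exceeded the MMPs in 4 of 6 libraries, and the groups overlapped again. Timp3 alone made up 49.4 ± 3.88% of the TIMP sum in DMSO and 49.9 ± 0.934% with forskolin (n = 3 per group).

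Beyond Mmp10, few further MMP transcripts were detected above traces. Of 18 other genes, the remaining MMPs and Timp4, 15 had a count in some library and 5 could be tested. Of these, 0 passed by edgeR, DESeq2 or limma-voom, where 2.8%, 4.52% and 3.94% of all tested genes did. An unadjusted p under 0.05 by edgeR was found for 1 of the 5 and for 1477 of all 12233 tested genes. By mean CPM, which is not corrected for length, Mmp24, a membrane-type MMP, came after Mmp10, and its CPM averaged 7.93 ± 1.80 in DMSO and 8.49 ± 2.31 in forskolin libraries (log2 change 0.12 ± 0.38). The list's median log2 change was 0.12.

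Genes that activate MMP proenzymes or hold that activation in check gave 2 calls, both of them rises. Of 23 listed, 14 could be tested, 2 rose and none fell, where 2.22% of all tested genes rose; the median log2 change was 0.25. Both are plasminogen activators, which generate the plasmin that activates several MMP proenzymes. Plau (urokinase) stood at 57.2, 60.9 and 43.4 CPM in DMSO A, B and C and 136, 137 and 121 CPM with forskolin. Plat (tissue-type activator) stood at 12.1, 8.51 and 8.13 CPM in DMSO and 41.1, 44.1 and 27.2 CPM with forskolin. Neither gene's groups overlapped (10.7% of tested genes did not in that direction), and log2 changes were 1.28 ± 0.15 (adjusted p = 7.44e-04) and 1.97 ± 0.27 (adjusted p = 0.00255) by edgeR. Their target Plg, the plasminogen gene of hepatocytes, had too few counts to be tested.

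Among genes that dock MMPs at the cell surface or clear them, calls depended on the method. Of 18 listed, 16 could be tested and 0 passed by edgeR with all 6 libraries. An unadjusted p under 0.05 was found for 3 of the 16 and for 1477 of all 12233 tested genes. DESeq2 called 1 and limma-voom 1, where they called 4.52% and 3.94% of tested genes. The median log2 change was 0.01. The highest by mean CPM over all 6 libraries, not corrected for length, were the integrin subunit genes Itgb1, with means of 1210 ± 232 CPM in DMSO and 1181 ± 317 CPM after forskolin, and Itgav, with 537 ± 22.0 and 657 ± 8.81 CPM. Itgav did not overlap between the groups, as for 10.7% of tested genes in that direction, and its log2 change was 0.29 ± 0.12 (adjusted p = 0.342 by edgeR). In DMSO alone Lrp1, at 584 ± 129 CPM, stood above Itgav. The naming of Itgav thus rests on its forskolin values, and its lack of overlap is no separate result. Without both C libraries 2 of 16 passed, both of them higher, where 5.86% of 12597 tested genes did: Itgav (0.26 ± 0.07, adjusted p = 0.0239) and Itgb3 (0.97 ± 0.15, adjusted p = 1.29e-04). Their products form the integrin αvβ3, a known docking receptor of MMP2. Itgb3 is named after its values were seen; with all libraries its change was 0.61 ± 0.23 (adjusted p = 0.289).

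**Figure D4:**
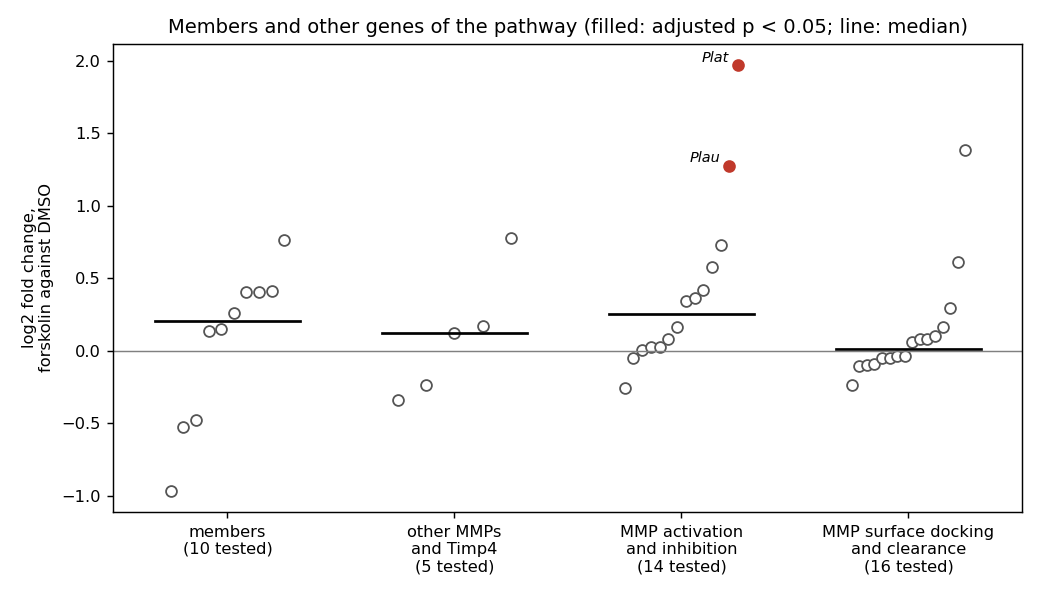
Log2 fold change by edgeR, forskolin against DMSO with all 6 libraries, of each tested gene among the 10 and in the 3 other lists (filled: adjusted p under 0.05; open: not called; line: median of the tested genes). Plau and Plat are the filled points.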

How the data were processed

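Polyadenylated RNA of 6 cultures of mouse stellate cells was sequenced, 3 with forskolin and 3 with DMSO. The authors deposited 1 table of expected counts over exons per gene, without adjustment, in steps of 0.5. Per the submitters' processing notes STAR, HOMER and the mm10 build were used; the sources used here give no versions, settings or counting rule. Values were rounded before testing, ties going to the even number.

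Forskolin was compared with DMSO in R 4.3.3 with edgeR 4.0.16: filterByExpr (12233 of 24940 genes kept), TMM scaling and a two-sided quasi-likelihood F test (robust dispersions). Benjamini-Hochberg adjustment ran over all tested genes, with calls at 0.05. SEs are the absolute log2 fold change over the square root of F. The floor was 3 counts. Intervals of log2 changes use these SEs and the t distribution, and so include the spread between libraries. Floors hold for counting error only: the reads carry no molecular identifiers and are not independent molecules. Marker sums are counts over column totals. The fit was also run on simulated counts, drawn gene by gene without the low values shared by the C libraries, so that run does not bear on them.

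The members, lists, rules and alternatives were chosen with earlier results of these data known. Named genes are the 10 members and, from each other list, up to 4 called genes by p, or the 2 most abundant where fewer than 2 were called. Alternatives were RLE, upper quartile and unscaled library sizes, 2 other filters, DESeq2 1.42.0, limma-voom (limma 3.58.1) with and without sample quality weights, the replicate letter as a block, and libraries left out. Promoter sequences are from RefSeq (GRCm38.p6).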

Additional observations from a re-analysis of the deposited data

How the results depend on the processing

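The number of genes called moved from 342 to 620 with no filter beyond 1 count, 553 by DESeq2, 984 with sample quality weights and 1229 without both C libraries, and ran from 185 to 485 without 1 library at a time. Of the 10 members, 1 was called higher with no filter, by limma-voom and with sample quality weights (Mmp2 in each), and 2 without both C libraries; without 1 library at a time, between 0 and 1 were. With sample quality weights, and without both C libraries, 1 was called lower (Mmp13). Of all tested genes, 2.47% were called higher with no filter, 2.92% by limma-voom and 4.86% with sample quality weights. Higher calls made up 5.86% without both C libraries and 1.3 to 2.89% without 1 library at a time. Lower calls made up 3.18% with sample quality weights and 3.9% without both C libraries. RLE, upper quartile and library-size scaling, the 1 CPM filter and DESeq2 left the members at 0 calls. The replicate letter as a block called 649 genes in all, with 3.72% of tested genes as higher. It called 2 members as higher, Mmp2 (adjusted p = 0.0263 by edgeR) and Mmp14 (adjusted p = 0.0154). For same-letter libraries, the correlations of deviations from the group means were 0.07, 0.15 and 0.18 for A, B and C. Forskolin B and C correlated best with the DMSO library of their own letter, and forskolin A with DMSO B. Deviations within a group of 3 cancel out, so this check cannot decide whether the letters pair the groups. No label pairs them, and the letters are not read as pairs. Changes in sign occurred without DMSO C for 3 members: without 1 library at a time, log2 changes ran from −0.0298 to 1.42 for Mmp9, from −0.0337 to 0.305 for Timp2 and from −0.0262 to 0.564 for Timp3. Mmp9 failed the filter in 3 of the 16 alternatives. Depth limits Mmp9 and Mmp19, whose counts reached at most 15 and 33 in any library.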
